A study of Drosophila melanogaster with 10 samples.

Results

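The 9 genes described here belong to Drosophila melanogaster protein families known for binding peptidoglycan or β-glucan of microbial walls, though not every member need bind them. These are 9 of the 11621 genes in the deposited table. They were taken by name from 10 listed recognition proteins: PGRP-SA, PGRP-SB1, PGRP-SC1a, PGRP-SC2, PGRP-SD, PGRP-LB, PGRP-LF, GNBP1, GNBP3 and GNBP-like3. PGRP-SC1a is not analysed here. RNA was sequenced from tissue labelled brain of male w1118 flies, a white-eyed stock labelled wild type, aged 4 to 7 days. The LPHC group (5 libraries) was kept on a low-protein, high-carbohydrate diet with a protein to carbohydrate ratio of 0 to 1, and the HPLC group (5 libraries) on a high-protein, low-carbohydrate diet at 1 to 2. Both diets were at 360 g/L, and both groups shared stock, sex, age and tissue. Per the series design, LPHC was the diet with the lower and HPLC the diet with the higher taste response to sucrose. No infection is mentioned in the labels. Whether libraries of 1 diet are independent cultures is not stated there either, so every p-value rests on spread between libraries that could be technical.

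Peptidoglycan recognition proteins (PGRPs) share a domain related to bacterial amidases. Some have kept the enzyme activity and cut peptidoglycan, while others only bind it and pass a signal on. In flies, PGRP-SA with GNBP1 and, for fungal β-glucan, GNBP3 start protease cascades in the haemolymph that end in the receptor Toll, while PGRP-LC at the membrane and PGRP-LE inside the cell start the Imd pathway. Both pathways drive antimicrobial peptide genes, mainly in the fat body, and several PGRP genes are themselves induced by them. Amidases such as PGRP-LB and the PGRP-SC proteins remove peptidoglycan and so limit Imd signalling.

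All 9 genes had more reads on HPLC. In each of them the lowest HPLC library lay above the highest LPHC library, which held for 17.4% of the 9896 genes tested. All 9 were called higher on HPLC by limma at an adjusted p under 0.05, against 22.1% of the genes tested (2185 genes), and none was called lower (18.9% of genes). The members were chosen with earlier results of these data known, so the contrasts with all genes are descriptive only. For 8 of the 9 the mean passed the minimum of 10 in both diets. PGRP-SC2 passed it only through HPLC, so its call was in part fixed by that filter. The median log2 fold change of the 9 genes was 1.10, with members from 0.56 to 3.28, and the median of all genes tested was −0.03. Of the members, 5 were called higher by at least 2-fold (6.41% of genes tested) and 2 by at least 4-fold (2.15%). At 1.5-fold it was 8 of 9 (10.7%). No member had all HPLC libraries below all LPHC libraries (11.7% of genes).

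The members' 9 higher calls and 0 lower calls held under other scalings and tests, whose shares of all genes differed. The share called higher was 21.7% and lower 19% with TMM scaling, 17% and 39.4% with quantile normalization, 17.8% and 33.1% with upper-quartile scaling, and 23.9% and 2.44% with libraries scaled on neuron markers. It was 22.2% and 18.6% with edgeR, and 22.5% and 19.5% with DESeq2. Levels are given as normalised read counts, that is, reads divided by the library's size factor. Each log2 fold change is the HPLC mean minus the LPHC mean of log2(count + 1), with its standard error (SE).

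Recovered reads per library ran from 19834344 to 38402635. Depending on the library, 3 reads equalled a normalised count between 2.09 and 4.19, far below the levels of 8 of the members, while PGRP-SC2 rested on 39 reads over the LPHC libraries and 95 over the HPLC libraries. Against the tissue label, 13 photoreceptor markers, genes of the eye, took 10.8% to 11.9% of the reads in LPHC libraries and 8.05% to 9.92% in HPLC libraries. The rhodopsin gene ninaE alone took 5.49% to 6.25% and 3.93% to 4.89%. The 15 neuron markers, which do not separate a brain from a whole head, took 0.995% to 1.17% and 0.835% to 0.982%. The libraries thus held transcripts of the eye beside those of neurons, in a share that did not overlap between the diets, and its part in the results was not tested.

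**Figure D1:**
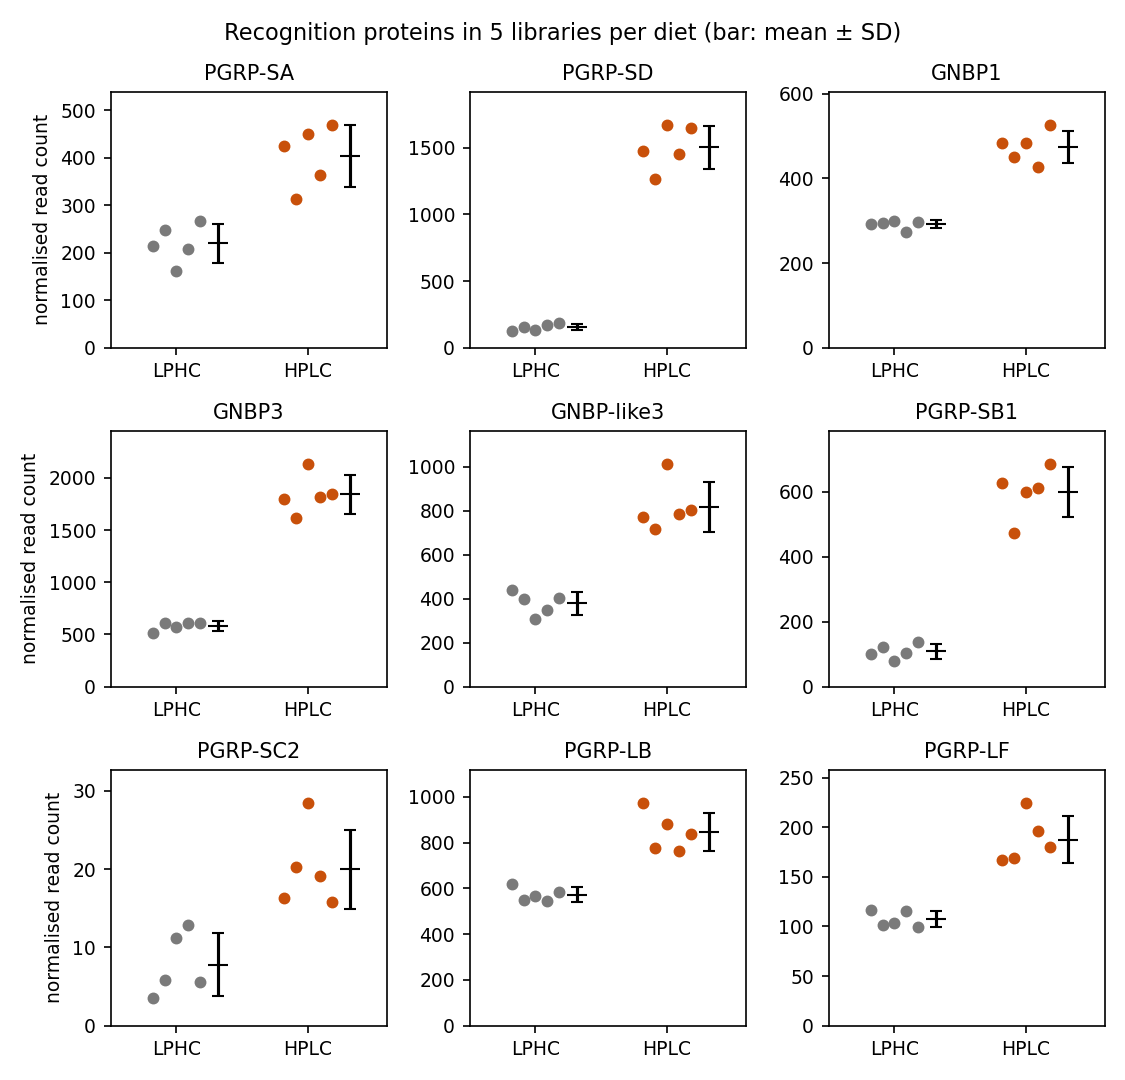
Normalised read count (vertical axes, each from 0) of the 9 recognition proteins in the 5 LPHC (grey) and 5 HPLC (orange) libraries, with the mean and SD beside the points. In every panel the HPLC points lie above the LPHC points, most widely for PGRP-SD (1264 to 1668 against 127 to 187).

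Among the secreted recognition proteins without amidase activity, PGRP-SD had the largest rise. It binds peptidoglycan and has been tied to sensing in both the Toll and the Imd branch. Its normalised count was 127, 154, 134, 174 and 187 in LPHC replicates 1 to 5, and 1479, 1264, 1668, 1452 and 1647 in HPLC replicates 1 to 5. The lowest HPLC library thus held several times the reads of the highest LPHC library. The means were 155 ± 25.3 and 1502 ± 164 (SD, n = 5 each), a ratio of 9.68, and the log2 fold change was 3.28 ± 0.10 (SE, limma adjusted p = 2.56e-13). Of the 9896 genes tested, 55 had a larger log2 fold change. Exons of PGRP-SD share 35 bases with CG7492, on the opposite strand in the BDGP6 annotation, and strand use in counting is not given in the sources used here. CG7492 went from 2867 ± 111 (LPHC) to 2778 ± 132 (HPLC; SD, n = 5 each) and was not called (log2 fold change −0.05 ± 0.05, limma adjusted p = 0.512).

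PGRP-SA, the circulating sensor of lysine-type peptidoglycan, had normalised counts of 215, 249, 162, 207 and 267 on LPHC and 426, 312, 450, 363 and 469 on HPLC. It varied more between libraries than most members, with an SD of 18.5% of the mean on LPHC and 16.1% on HPLC, and the ranges still did not meet. It rose 1.84-fold as a ratio of means (log2 fold change 0.88 ± 0.14, SE, n = 5 each; limma adjusted p = 9.08e-05). Its partner GNBP1, which acts with PGRP-SA upstream of Toll, was at 293, 294, 300, 275 and 297 on LPHC and at 483, 452, 484, 428 and 525 on HPLC. GNBP1 had the smallest spread of all members on LPHC (SD 3.42% of the mean) and rose 1.63-fold (log2 fold change 0.70 ± 0.07, limma adjusted p = 2.88e-07).

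GNBP3, the sensor of fungal β-1,3-glucan, was the most abundant member by reads on HPLC. Its normalised count was 510, 613, 569, 609 and 609 on LPHC and 1803, 1618, 2131, 1821 and 1845 on HPLC. The means of 582 ± 44.3 and 1844 ± 184 (SD, n = 5 each) gave a ratio of 3.17. The log2 fold change was 1.66 ± 0.07 (SE; limma adjusted p = 5.12e-12), and 302 tested genes rose by more. GNBP-like3, a short secreted relative of the GNBPs, stood at 442, 397, 308, 349 and 405 on LPHC and at 771, 717, 1012, 785 and 805 on HPLC. HPLC replicate 3 was the highest library for both genes. GNBP-like3 rose 2.15-fold (log2 fold change 1.10 ± 0.10, SE, n = 5 each; limma adjusted p = 1.89e-07).

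The 3 amidase members differed widely in level and in size of change. PGRP-SB1, a secreted amidase that cuts diaminopimelic-acid-type peptidoglycan, had 99.4, 122, 79.6, 104 and 139 on LPHC and 626, 473, 599, 611 and 684 on HPLC. Its means were 109 ± 22.6 and 599 ± 77.6 (SD, n = 5 each), a ratio of 5.50. Its log2 fold change was 2.46 ± 0.13 (SE; limma adjusted p = 2.15e-10), and 128 tested genes rose by more. PGRP-LB, an amidase that damps the Imd response, was at 620, 550, 567, 543 and 585 on LPHC and at 971, 776, 880, 763 and 839 on HPLC. PGRP-LB rose 1.48-fold, the smallest change of the 9 (log2 fold change 0.56 ± 0.07, limma adjusted p = 5.02e-06), and 1130 tested genes rose by more. The gene gives rise to a secreted and to intracellular forms, which a count per gene does not separate.

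PGRP-SC2, known as an amidase of the gut, was close to the detection limit. Its normalised count was 3.48, 5.81, 11.2, 12.9 and 5.60 on LPHC and 16.3, 20.3, 28.4, 19.2 and 15.8 on HPLC. The closest pair of libraries across diets was LPHC replicate 4 and HPLC replicate 5. Its log2 fold change was 1.35 ± 0.32 (SE, n = 5 each; limma adjusted p = 0.00293), the least precise of the 9, and it was 1.00 with a pseudocount of 5. PGRP-SC1b, which encodes nearly the same protein as PGRP-SC1a, had 14 reads over the LPHC libraries and 3 over the HPLC libraries and was below the minimum mean. Reads of these near-identical copies may have been split by the counting.

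PGRP-LF is a membrane protein that lacks a signalling tail and holds PGRP-LC in check. It was at 117, 102, 103, 116 and 99.8 on LPHC and at 167, 169, 224, 196 and 180 on HPLC, with no overlap. It rose 1.74-fold (log2 fold change 0.79 ± 0.10, SE, n = 5 each; limma adjusted p = 9.96e-06). In the BDGP6 annotation, 602 of the 1355 exon bases of PGRP-LF are shared with UGP, a gene of sugar-nucleotide synthesis on the opposite strand. UGP went from 2916 ± 130 (LPHC) to 7899 ± 627 (HPLC; SD, n = 5 each) and rose by 1.43 ± 0.06 on the log2 scale (limma adjusted p = 5.35e-12). UGP thus held far more reads than PGRP-LF and moved the same way, and with strand use not given, the reads of the shared bases cannot be told apart.

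**Figure D2:**
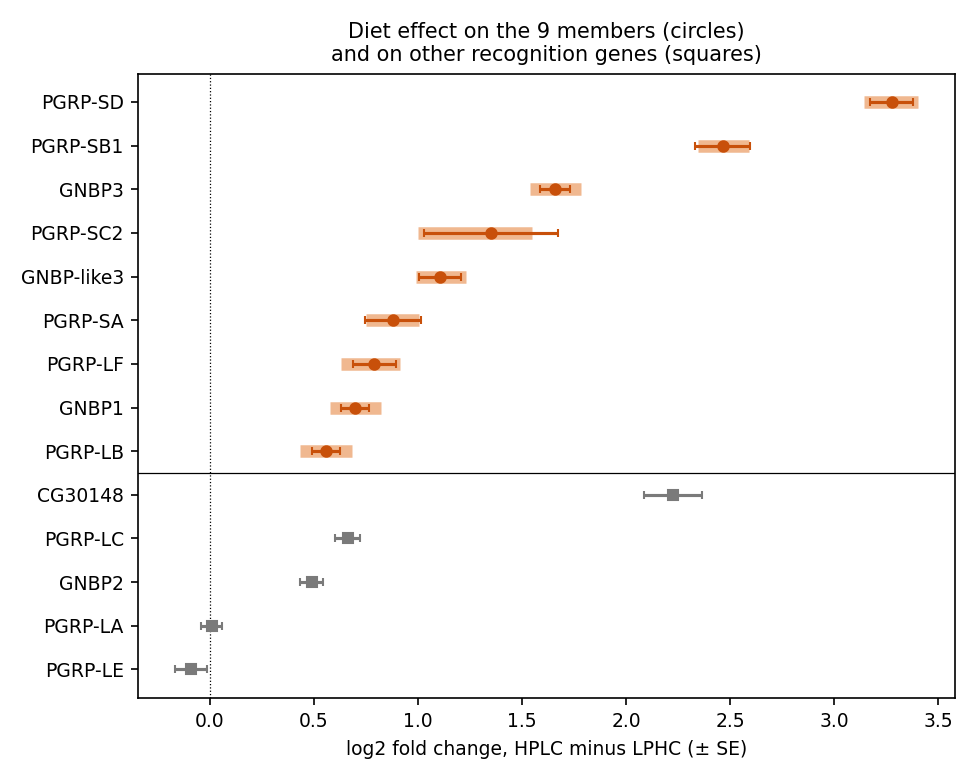
Log2 fold change, HPLC minus LPHC, with SE (n = 5 libraries per diet) of the 9 members (circles) and of the 5 other recognition genes that passed the minimum mean (squares). The pale bars give the range over all alternatives run. Members lie from 0.56 (PGRP-LB) to 3.28 (PGRP-SD), while PGRP-LA and PGRP-LE lie near 0.

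The members did not change by the same factor. Ratios of 2 members within a library do not depend on the scaling between libraries, apart from the pseudocount, and each of the 36 pairs was compared between diets by a two-sided exact permutation test. In 22 pairs the change of the ratio had an adjusted p under 0.05, and 21 of them reached the smallest p the design allows (0.00794, adjusted 0.0136). PGRP-SD rose by more than each of the other 8 members, by 0.81 ± 0.10 (SE) on the log2 scale over PGRP-SB1 and by 2.72 ± 0.14 over PGRP-LB. PGRP-SB1 rose by 0.80 ± 0.14 more than GNBP3, and by more than all other members below it except PGRP-SC2 (1.11 ± 0.43, exact permutation p = 0.0397, adjusted 0.0621). GNBP3 rose by more than GNBP-like3 (0.55 ± 0.12), PGRP-SA (0.78 ± 0.14), PGRP-LF (0.87 ± 0.10), GNBP1 (0.96 ± 0.09) and PGRP-LB (1.10 ± 0.11), all with an adjusted exact permutation p of 0.0136.

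The lower end of the order was not resolved, nor was the place of PGRP-SC2 below PGRP-SD. No pair of PGRP-SC2 with a member other than PGRP-SD passed (adjusted exact permutation p from 0.0621 with PGRP-SB1 to 0.588 with GNBP-like3). PGRP-SA, PGRP-LF, GNBP1 and PGRP-LB differed from each other by 0.09 to 0.32 on the log2 scale, and none of these 6 pairs passed (adjusted exact permutation p from 0.0833 to 0.595). PGRP-SA and GNBP1, the pair that acts together, differed in their rise by 0.18 ± 0.15 (exact permutation p = 0.302, adjusted 0.339, n = 5 each), within the spread between libraries. The difference between GNBP-like3 and PGRP-LF (0.32 ± 0.10, exact permutation p = 0.0159, adjusted 0.0260) no longer passed without LPHC replicate 2, 3 or 4 or HPLC replicate 2 or 5 (adjusted exact permutation p = 0.0519 in each case). The difference itself stayed between 0.26 and 0.35 there. With 1 library fewer the exact test allows fewer p-values and a larger smallest p. That holds for each library left out, and the call was kept without any 1 of the others. Whether the loss reflects those libraries was not tested.

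**Figure D3:**
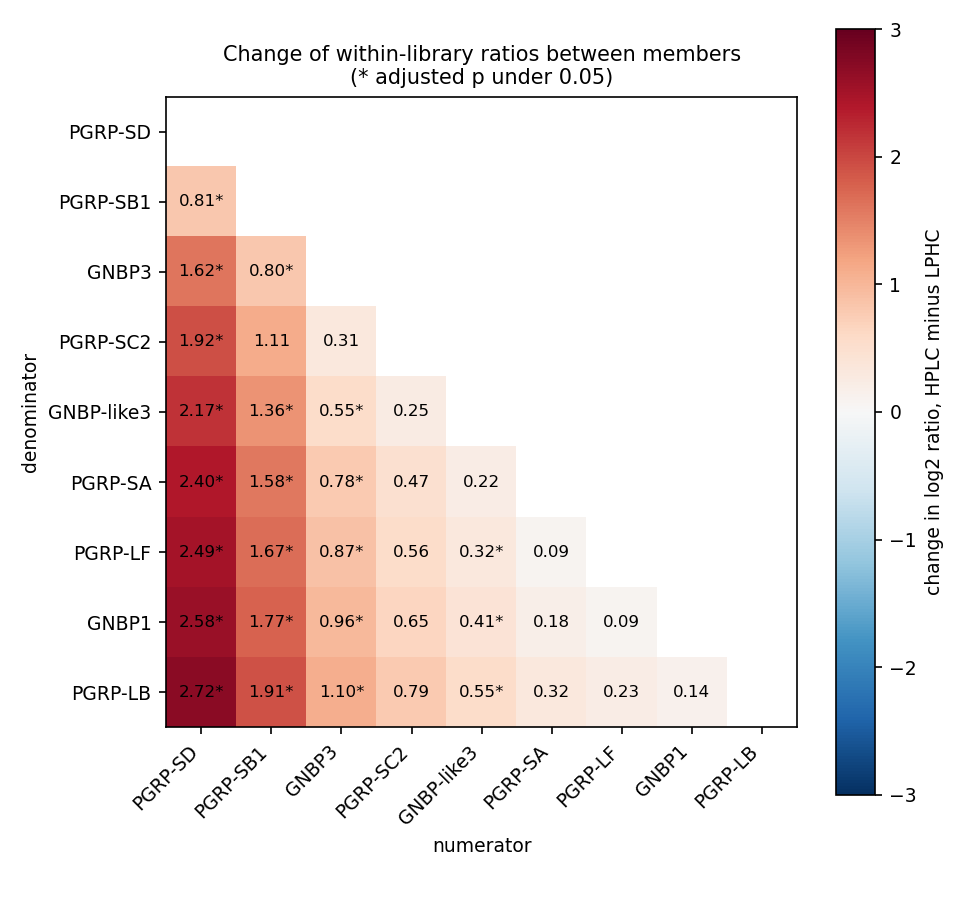
Change, HPLC minus LPHC, of the log2 ratio of the column gene to the row gene within a library, for all 36 pairs of members, ordered by their log2 fold change; an asterisk marks an adjusted exact permutation p under 0.05. The columns of PGRP-SD, PGRP-SB1 and GNBP3 hold most of the 22 marked pairs, and the pairs among PGRP-SA, PGRP-LF, GNBP1 and PGRP-LB hold none.

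Per length, the order of the levels changed between diets. Levels were compared as normalised counts per kilobase of merged exons in the BDGP6 annotation, which may differ from the gene models the authors counted on. On LPHC the order was GNBP-like3 (738 ± 101, SD, n = 5), GNBP3 (380 ± 28.9), PGRP-LB (323 ± 17.4), PGRP-SA (216 ± 39.9), PGRP-SD (215 ± 35.1), PGRP-SB1 (175 ± 36.3), GNBP1 (163 ± 5.59), PGRP-LF (79.3 ± 6.03) and PGRP-SC2 (10.4 ± 5.38). The ranges of neighbours overlapped between GNBP3 and PGRP-LB and along the run from PGRP-SA to GNBP1. On HPLC PGRP-SD came first (2083 ± 228, SD, n = 5), followed by GNBP-like3 (1588 ± 220), GNBP3 (1204 ± 120) and PGRP-SB1 (961 ± 125). PGRP-LB (477 ± 47.6), PGRP-SA (397 ± 63.7), GNBP1 (266 ± 20.7), PGRP-LF (138 ± 17.4) and PGRP-SC2 (26.8 ± 6.80) came after them. On HPLC the ranges of PGRP-SD and GNBP-like3, of GNBP3 and PGRP-SB1, and of PGRP-LB and PGRP-SA overlapped.

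The other genes of the 2 families showed that not every recognition gene rose. Of 9 further names, 8 were in the table and 5 passed the minimum mean, of which 3 were called higher and none lower. CG30148, listed here as a relative of the GNBPs, rose from 29.9 ± 2.62 to 145 ± 25.4 (SD, n = 5 each; log2 fold change 2.23 ± 0.14, limma adjusted p = 7.90e-10). GNBP2 rose by 0.49 ± 0.06 (limma adjusted p = 1.68e-06), and PGRP-LC, the main membrane receptor of the Imd pathway, by 0.66 ± 0.06 (8.07e-08). PGRP-LE, the receptor inside the cell, went from 609 ± 67.7 (LPHC) to 570 ± 33.5 (HPLC; SD, n = 5 each; log2 fold change −0.09 ± 0.08, limma adjusted p = 0.361), and quantile normalization called it lower. PGRP-SB2 (6 and 15 reads over the LPHC and the HPLC libraries) and PGRP-LD (26 and 44 reads) were below the minimum mean.

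Some genes of these families are neighbours. PGRP-LA, PGRP-LC and PGRP-LF follow each other on chromosome arm 3L. PGRP-LA was at 2265, 2066, 2050, 2138 and 2217 on LPHC and at 2174, 2186, 2260, 2080 and 2097 on HPLC. The 2 diets overlapped throughout for PGRP-LA, and its log2 fold change was 0.01 ± 0.05 (SE, n = 5 each; limma adjusted p = 0.911). PGRP-LC was at 1435, 1564, 1480, 1748 and 1587 on LPHC and at 2663, 2405, 2460, 2350 and 2469 on HPLC, with no overlap. GNBP1 and GNBP2, also neighbours on 3L, rose by 0.70 ± 0.07 and 0.49 ± 0.06 on the log2 scale.

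**Figure D4:**
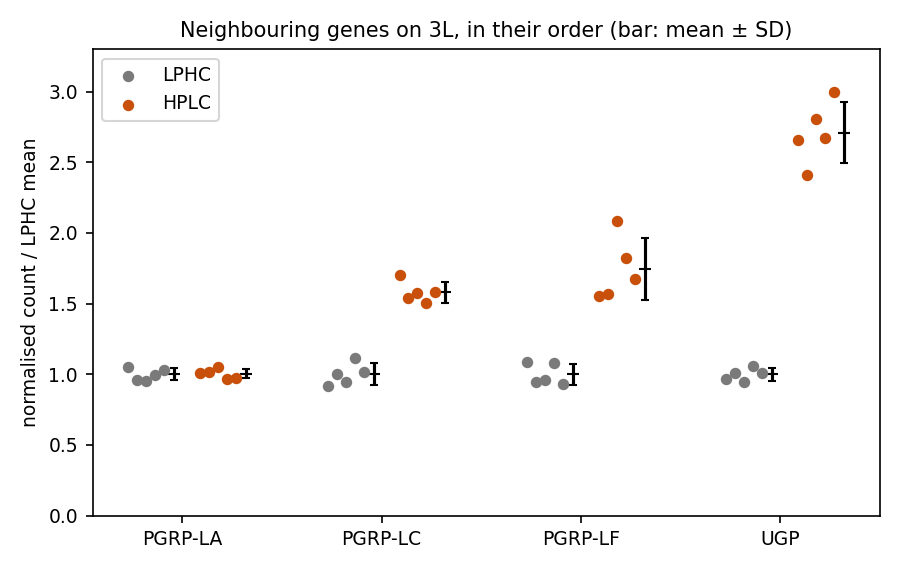
Normalised count divided by the gene's LPHC mean for PGRP-LA, PGRP-LC, PGRP-LF and UGP, which follow each other on chromosome arm 3L, in the 5 LPHC (grey) and 5 HPLC (orange) libraries, with mean and SD. PGRP-LA stays near 1 on both diets, while PGRP-LC (mean ratio 1.58), PGRP-LF (1.74) and UGP (2.71) lie above 1 in every HPLC library.

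Downstream of recognition, the counts below stand beside the 22.1% of all genes tested that were called higher and the 18.9% called lower. Of 8 tested proteases, inhibitors and related genes upstream of Toll, 7 were called higher and none lower, with a median log2 fold change of 0.92. The protease Hayan rose by 1.57 ± 0.08, SPE, which cleaves the Toll ligand, by 1.26 ± 0.07, modSP, the first protease after PGRP-SA and GNBP3, by 1.06 ± 0.06 and psh by 0.92 ± 0.06 (SE, limma adjusted p at most 3.07e-09). Of 10 genes from the ligand spz to the transcription factors, 4 were called higher and none lower (median 0.04): spz (0.51 ± 0.04), Myd88 (0.36 ± 0.06), pll (0.34 ± 0.06) and Dif (0.30 ± 0.06), with limma adjusted p at most 0.00130. Under upper-quartile and quantile scaling, 2 and 3 of these 10 were called lower. The difference between the lists was not tested.

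In the Imd pathway, 2 of 13 core genes were called higher and 2 lower (median −0.02). The adaptor imd rose by 0.61 ± 0.07 and the transcription factor Rel by 0.47 ± 0.06 (SE, limma adjusted p = 1.12e-06 and 3.56e-06). Diap2 fell by 0.19 and Tak1 by 0.14, calls that were lost under neuron-marker scaling, which leaves none lower. The Tak1 call was lost without any 1 library other than LPHC replicate 1 and HPLC replicate 5, and without a filter on low values. Of 6 negative regulators, pirk, which is induced by the pathway it limits, rose by 0.83 ± 0.09 and scny by 0.24 ± 0.06 (limma adjusted p = 1.25e-06 and 0.00377). CYLD had a log2 fold change of −0.17 ± 0.06 and was called lower (limma adjusted p = 0.0397), a call lost without LPHC replicate 1, 3 or 4 or HPLC replicate 1, 2, 4 or 5.

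Most genes tested in the peptide and melanisation lists were called higher, with exceptions in each list. Of 7 tested peptides mainly driven by Imd, 4 were called higher and none lower (median 1.81): Def (5.16 ± 0.25), AttB (3.06 ± 0.17), a near copy of AttA with which it may share reads, AttC (means 59.1 and 395) and Dro (1.11 ± 0.28), with limma adjusted p at most 0.00465. DptA and DptB had log2 fold changes of 1.67 and 1.81 and were not called (limma adjusted p = 0.0720 and 0.0656), nor was CecC (−0.07, adjusted p = 0.889). A further 5 Imd-type peptides were below the minimum mean, with ratios of means from 1.02 (CecB) to 3.42 (CecA1). CecA1 went from 2.35 to 8.03 with no overlap between diets. Without a filter on low values CecA1 was called higher (log2 fold change 1.66 ± 0.43, limma adjusted p = 0.00573), and the others of these were not called. Of 17 tested peptides mainly driven by Toll, 15 were called higher and none lower (median 0.82), among them BomS6 (2.30 ± 0.15), BomT2 (2.16 ± 0.13) and BomBc2 (2.08 ± 0.12), while BomS5 (0.28) and IMPPP (0.40) were not called. Below the minimum mean, and so outside that count, Mtk went from 14.8 to 4.55 with no overlap between diets, and IBIN from 9.29 to 4.61 with overlap. Without a filter on low values Mtk was called lower (log2 fold change −1.41 ± 0.34, limma adjusted p = 0.00369), and IBIN was not called (−0.80 ± 0.32, adjusted p = 0.0595). Melanisation is a wound and defence reaction that recognition proteins can also start. Of 9 genes that carry it out, regulate it or inhibit it, 7 were called higher and none lower (median 0.58). Among them were yellow-f2 (2.01 ± 0.06), yellow-f (1.10 ± 0.13) and the serpin Spn27A (0.70 ± 0.06), an inhibitor of melanisation. PPO2 (0.39) and PPO3 (−0.26) were not called.

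**Figure D5:**
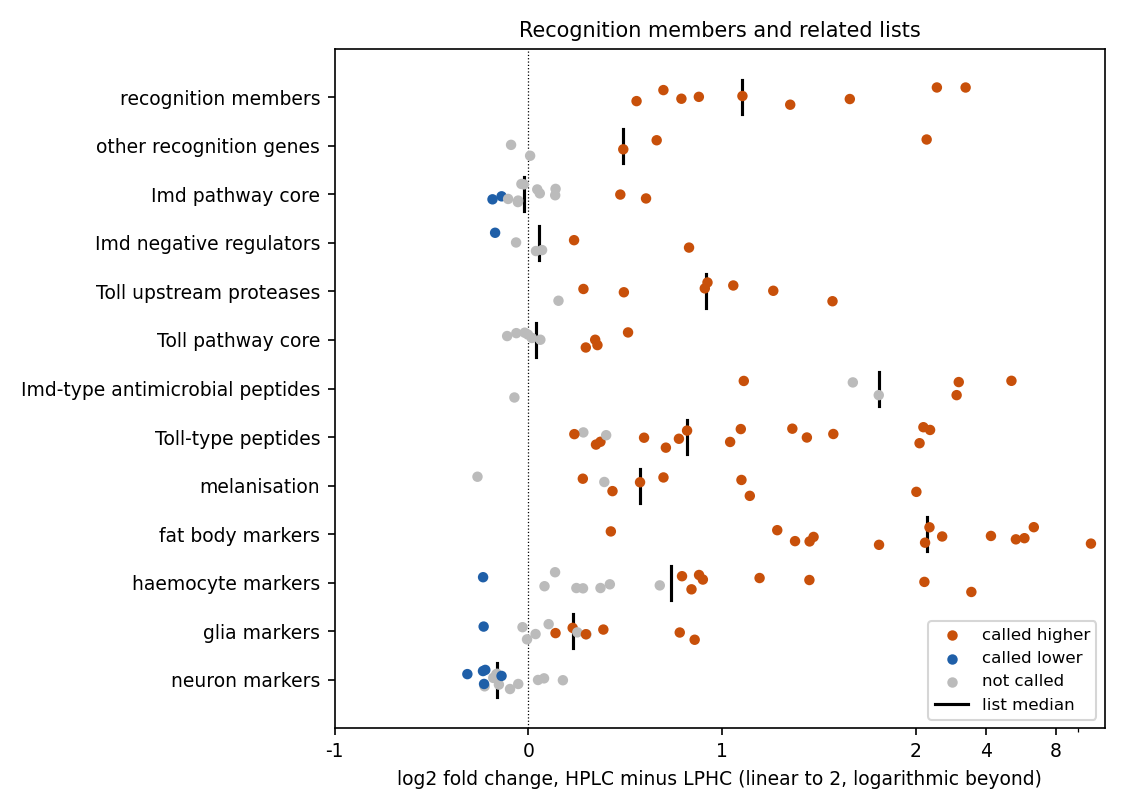
Log2 fold change, HPLC minus LPHC, of each tested gene in the recognition members and in 12 related lists (axis linear to 2 and logarithmic beyond), coloured by the limma call, with the list median as a black bar. All 9 members and 7 of 8 Toll upstream proteases are called higher, while most Imd and Toll core genes lie near 0.

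Most markers of the fat body, which makes many of these proteins, were higher in the same libraries. All 14 tested fat body markers were called higher (median log2 fold change 2.24), with summed normalised counts of 51227 to 65355 on LPHC and 240725 to 290390 on HPLC. Most of each sum was Tsf1 (means 22785 and 103250), FASN1 (15699 and 55140) and apolpp (14098.5 and 68600.5), so the sums mainly reflect those genes. Of the 14, Lsp2 (16 reads over the LPHC libraries) and fit (13 reads) passed the minimum mean only through HPLC. The other 3 in the table were below it, with lower means on HPLC and overlapping diets: Lsp1gamma (ratio of means 0.705), Fbp1 (0.697) and Fbp2 (0.635). Lsp1beta rose by 6.44 ± 0.12 and Mtp, a lipid transfer protein, by 1.47 ± 0.06. Of 16 haemocyte markers 8 were called higher and 1 lower (median 0.74), and 5 were higher without HPLC replicate 2, 3 or 5. Their summed counts were 20978 to 40560 on LPHC, lowest in LPHC replicate 1, and 48205 to 55558 on HPLC. Glt rose the most of the 16 (3.47 ± 0.11), from a mean of 911 on LPHC to 10028.5 on HPLC. Without Glt the sums of the 2 diets overlap. The marker called lower was lz (−0.23 ± 0.06). A further 7 were not called, among them Hml (0.68 ± 0.31, limma adjusted p = 0.110) and Ppn (0.37 ± 0.32, limma adjusted p = 0.390). All 4 tested gut and salivary enzymes were called higher, among them Amy-p (6.49 ± 0.28), Amy-d (5.32 ± 0.10) and LManII (1.72 ± 0.08). The list's summed counts were 2607 to 3414 on LPHC and 10904 to 12903 on HPLC. Most of each sum was LManII, a lysosomal mannosidase (means 2699 and 8831), so the sums do not stand for gut and salivary tissue alone. Amy-p, with 25 reads over the LPHC libraries, passed the minimum mean only through HPLC. The other 4 enzymes in the table, all gut proteases, were below it: Jon65Ai (ratio of means 0.344), Jon65Aii (0.273, with no overlap), Jon65Aiii (0.373) and Jon99Ci (1.05), and without a filter none was called (limma adjusted p from 0.0525 to 0.986). The trypsin genes of that list are not analysed here. The part of these tissues in the rise of the recognition proteins was not tested, and in bulk RNA more cells of a type and more RNA per cell cannot be told apart. The table lists only genes with a read in 6 or more libraries, so no listed marker is at 0 throughout a diet.

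Other cell types of the head gave smaller values. Of 13 glia markers 6 were called higher and 1 lower (median 0.23; 2 higher under upper-quartile scaling), among them Indy (0.78 ± 0.06) and CG6126 (0.86 ± 0.07). Of 15 neuron markers none was called higher and 5 lower (median −0.16), and the number lower was 11 under upper-quartile and quantile scaling, 1 without LPHC replicate 3 or 4, 3 without HPLC replicate 2 or 3, and 2 without HPLC replicate 4 or 5. Of 11 muscle markers 7 were called lower (median −0.29), led by TpnC41C (−0.73 ± 0.09), of 13 photoreceptor markers 2 were higher and 3 lower, and of 6 trachea markers 2 were higher and 2 lower. With libraries scaled on the neuron markers, the 9 members kept their calls and had log2 fold changes from 0.68 (PGRP-LB) to 3.40 (PGRP-SD), beside a median of 0.10 over all genes.

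On HPLC, 2 libraries held most of the members' extremes. Of the 9 members, 5 had their lowest HPLC value in HPLC replicate 2, which was lowest for 16.8% of all genes tested, and 5 their highest in HPLC replicate 3, which was highest for 32.7% of genes and lowest for 31.2%, the most of any HPLC library on both counts. HPLC replicate 3 lay above the diet's mean log2 level for all 9. On LPHC no library was lowest or highest for more than 3 of the 9 members, and 2 to 7 members lay above the diet's mean in each. The summed fat body markers in those libraries were 240725, the lowest of the HPLC libraries, and 256887, the second lowest. In HPLC replicate 3, FASN1 was at 45933, below the other HPLC libraries (50270 to 62207). Tsf1 was at 108608 there, within the range of the others (94170 to 109510). The rank of HPLC replicate 3 thus depends on which markers are summed.

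Each member's nearest profile was the gene outside the members with the smallest distance between log2 profiles over the 10 libraries, each centred on its own mean. It was CG16758 for PGRP-SD (distance 0.39), with 1838 ± 168 on LPHC against 19542 ± 1830 (SD, n = 5 each), and CG7997 for PGRP-SB1 (0.39). GNBP3 was nearest to Idgf6 (0.23), a chitinase-like secreted protein, with 3698 ± 250 and 11973 ± 948 on the 2 diets. The other nearest genes were GILT2 for PGRP-SA (0.42), CG33494 for PGRP-SC2 (1.11), CG7829 for PGRP-LB (0.18), CG7203 for PGRP-LF (0.28), cu for GNBP1 (0.18) and CG43091 for GNBP-like3 (0.28). These distances rest mostly on the difference between the diets, which the profiles share.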

How the data were processed

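The authors deposited 1 table of normalised counts per gene for 10 libraries (unit: signal). HISAT2 is named in the submitters' processing notes. Aligner version, counting tool, strand setting, gene models and build: not given in the sources used here. Coordinates are therefore left out, and neighbours and exon lengths come from the Ensembl BDGP6 annotation. All deposited values were whole multiples of 1 constant per library (100% within 1e-06), equal to the reciprocal of DESeq2's median-of-ratios size factor recomputed from the recovered reads. The table holds genes with a read in at least 6 libraries.

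Diets were compared by limma with trend (version 3.58.1, R 4.3.3, robust, two-sided) on log2(value + 1) of 9896 genes whose mean reached 10, adjusted by Benjamini-Hochberg over all of them at 0.05. A log2 scale with a pseudocount understates changes of low genes. Ratios of 2 members were tested by exact permutation (scipy 1.17.1), adjusted over 36 pairs. edgeR 4.0.16 and DESeq2 1.42.0 on recovered reads with the deposited size factors, other scalings, pseudocounts, filters and leaving out each library were alternatives. On simulated reads of 9896 genes for HPLC against LPHC, limma recovered 92% of 50 genes changed 1.5-fold and 100% of those changed 2-fold, and called 11 of 9696 unchanged genes. The changed genes were drawn from those with a mean of at least 50, and the true size factors were used. A far smaller share of genes was changed than was called in the data. The recovery thus does not cover low genes such as PGRP-SC2. Depth is given above. Libraries within a diet differed by more than counting noise, with chi-square over degrees of freedom from 5.06 to 50.5, so each counted as 1 replicate.

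Members and lists were chosen with earlier results of these data known. Named are all members, every tested gene among the other recognition genes, up to 4 called genes of each other list by smallest adjusted p (not all are printed) and each member's nearest profile; UGP and CG7492 (exon overlap), PGRP-SB2, PGRP-SC1b, PGRP-LD, ninaE and listed genes that were not called or were below the minimum mean were added after their values were seen. Of the table's names 11080 were current symbols, 514 older names and 27 matched none. Promoter and protein sequences were not used here.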

Additional observations from a re-analysis of the deposited data

Results flagged for a closer look

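Among the 34 sets of 5 libraries checked (9 members and 8 other recognition genes in each diet), 2 held a library far from the other 4, and chance alone flags about 1 in 20. For GNBP1 on LPHC, replicate 4 (275) lay below the other libraries (293 to 300), with a gap of 0.74 of the whole range. For PGRP-SB2 on HPLC, replicate 4 (6.85, from 5 reads) lay above the others (1.69 to 3.16), with a gap of 0.715 of the range. Leaving out LPHC replicate 4 kept GNBP1 called higher.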

How the results depend on the processing

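The 9 members kept their direction and their call under every alternative that tested them; with a mean of at least 50, PGRP-SC2 was left out and 8 were called. Quantile normalization gave the smallest log2 fold changes (0.43 for PGRP-LB to 3.14 for PGRP-SD; PGRP-SC2 was smallest, at 1.00, with a pseudocount of 5) and neuron-marker scaling the largest, except for PGRP-SC2 (1.55 without LPHC replicate 4). The median of all genes was −0.14 under quantile, −0.11 under upper-quartile and 0.10 under neuron-marker scaling, so changes of that size have no fixed direction. Counts of lower calls moved with scaling. Over all genes they were 3275 under upper-quartile, 3902 under quantile and 241 under neuron-marker scaling. Upper-quartile scaling gave 4 lower in the Imd core, 2 among Imd negative regulators, 2 in the Toll core, 11 neuron and 6 photoreceptor markers, and 2 glia markers higher; quantile normalization gave 4, 2, 3, 11 and 5, and 1 other recognition gene lower. Neuron-marker scaling left 0 lower in the Imd core, its regulators, haemocyte, glia, neuron and photoreceptor markers, 1 lower trachea marker and 1 higher neuron marker. This scaling sets the mean log2 level of the neuron markers equal in all libraries, so the loss of their lower calls was largely fixed in advance. Without a filter, 1 Imd core gene and 1 Toll-type peptide (Mtk) were lower, while the Imd-type peptide CecA1 was higher. Neuron markers were lower in 8 cases with DESeq2, and in 8 with 1 higher under library weights. Leaving out 1 library gave 1 to 2 lower in the Imd core, 0 to 1 among its regulators, 5 to 9 higher haemocyte markers, and 1 to 7 lower and 0 to 1 higher neuron markers.

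Libraries of the same replicate number did not deviate together (correlations from −0.02 to 0.01), so a pairing by replicate number was not seen. The library titles carry other numbers, and a pairing by those was not tested throughout. The replicate block kept all 9 members called and gave 2152 genes higher, 1702 lower, 1 lower in the Imd core and 2 lower neuron markers. Pairs of members past the threshold numbered 21 to 24 over the alternatives. Depth limits PGRP-SC2, PGRP-SB2, PGRP-SC1b and PGRP-LD. The planned scan of promoter motifs was not run. The cause of these shifts was not tested.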
